A study of Mus musculus with 7 samples.

Results

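The 32 genes described here are activation genes of disease-associated microglia (DAM), the state that microglia enter around dying cells, protein deposits and debris. The list names them by symbol and applies no threshold to the values measured here, and all 32 symbols were found among the 50686 genes of the tables. Of these genes, 31 were among the 17559 that were tested for a difference between ages. The remaining member, Cybb, lies on chromosome X and was fitted in a separate run over 18173 genes that kept chromosomes X, Y and M.

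In the DAM state, microglia lower the genes of the resting, homeostatic state, such as P2ry12 and Tmem119, and raise genes for phagocytosis, lysosomal digestion and lipid handling. The receptor Trem2 and its adaptor Tyrobp, which sense lipids and debris, are needed for the full programme, and apolipoprotein E is one of its main products. Several members, among them Spp1, Gpnmb, Lgals3, Lyz2 and Vim, are also expressed by macrophages that develop from blood monocytes, so they do not by themselves separate these cells from microglia.

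Microglia were sorted from the forebrain of C57BL/6 male mice 4 days after an ischemic stroke produced by transient middle cerebral artery occlusion. The young group held 4 mice of 3 to 4 months (14C, 18C, 23C and 29C) and the old group 3 mice of 21 to 22 months (2posI, 3posI and 4posI), and each library came from 1 mouse. Mice of both ages had the same occlusion procedure and no drug to deplete microglia. The sort used CD11b, CD45 and Bodipy, a dye of neutral lipids, so all cells compared were lipid droplet-rich. There was no group without stroke and no Bodipy-negative group, and the comparison asks only how the members differed between ages in these cells. Deposited expected counts summed to 36574083 to 53002386 per library. Levels are given below as CPM, the counts per library scaled to a common total with TMM factors, and as TPM, which is per length, where genes are compared with each other.

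The labelled cell type was checked with its markers. Homeostatic microglial genes were abundant in all libraries, with Tmem119 at 850.3 to 2269 CPM and P2ry12 at 341 to 1767 CPM, and the lowest value of both was in old mouse 3posI. This library stood apart from the others. The 23 homeostatic genes summed to 13980 CPM in 3posI, against 31733 and 29722 CPM in the other old mice and 25488 to 39677 CPM in the young mice. The 12 monocyte markers summed to 3210 CPM in 3posI, 500 CPM in 2posI, 253 CPM in 4posI and 192 to 513 CPM in the young mice, and all 12 were highest in 3posI. The monocyte receptor Ccr2 was at 231 CPM there and at most 19.3 CPM elsewhere. In these bulk samples, a change in the share of 1 cell type cannot be told apart from a change in the RNA that each of its cells held. Because of this, the main results are given with and without 3posI.

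The DAM genes made up 1.47 to 4.69% of a library's expected counts, and the largest part of this was 1 gene. Spp1, which encodes the secreted phosphoprotein osteopontin, alone took 0.509 to 2.46% of a library and ranked between place 3 and place 20 among all genes by TPM. Its TPM averaged 14062 ± 8959 (SD, n = 4) in the young mice, and in the old mice it was 16186 ± 7378 (SD, n = 3). Next by mean TPM over the 7 libraries were Lyz2 (4835 TPM), Cd63 (2197 TPM), Cd9 (1674 TPM), Cd52 (1293 TPM), Lgals3 (1143 TPM) and Syngr1 (1102 TPM). At the other end were Dkk2, a secreted Wnt inhibitor, at a mean of 0.17 TPM, and Mamdc2, a matrix protein, at 0.28 TPM. The highest and lowest Spp1 values of the whole experiment, 26626 and 5478 TPM, were both in young mice.

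**Figure D1:**
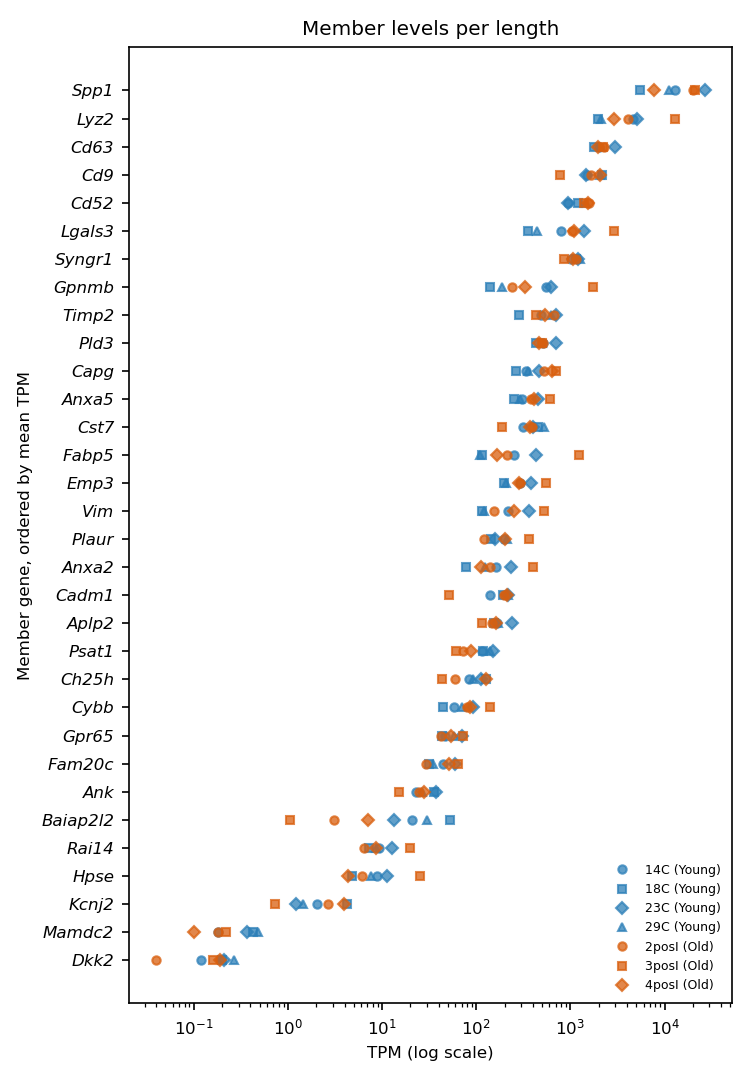
Level of each of the 32 members in TPM (log scale), with 1 point per library, blue for young and orange for old mice, ordered by the mean over 7 libraries. Spp1 lies highest at a mean of 14972 TPM and Dkk2 lowest at 0.17 TPM, and the points of both ages are mixed for most members.

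No member passed the threshold of the main test for a difference between ages. The quasi-likelihood test of edgeR, adjusted over 17559 genes by Benjamini-Hochberg, called 0 of 31 members, while it called 141 genes or 0.803% of all, 100 of them (0.57%) higher and 41 (0.233%) lower in old mice. Cybb was not called either in its own run (0.754% of 18173 genes), and without 3posI the count was again 0 of 31 (0.915% of all genes). At an unadjusted p under 0.05, 6 of 31 members passed, with Capg, Lgals3, Anxa5 and Cd52 higher and Psat1 and Baiap2l2 lower, against 18.9% of all genes. limma-voom also called 0 members (0.814% of all genes). DESeq2, which called 7.99% of all genes (4.26% higher and 3.73% lower), called Capg higher and Baiap2l2 and Psat1 lower among the 31, and in the run that kept chromosome X it also called Cybb. At an adjusted p under 0.1, Capg and Psat1 passed with edgeR, against 3.63% of all genes.

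The direction of the members as a group rested on 1 library. Of the 31 members, 18 (58.1%) had a log2 fold change above 0 and their median was 0.19, against 48.8% and -0.01 over all genes tested. Without 3posI, 12 members (38.7%) were above 0 and the median was -0.12, against 48.1% and -0.02 over all genes. Fabp5, Gpnmb, Hpse, Anxa2, Vim, Plaur, Rai14, Fam20c and Gpr65 went from a positive to a negative value, and Cd9, Cadm1 and Timp2 from a negative to a positive one. None of these 12 was called in either fit. Capg, Lgals3, Cd52, Anxa5, Emp3, Lyz2, Spp1, Kcnj2 and Cd63 were above 0 with and without this library, and so was Cybb, but none of them passed the test.

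**Figure D2:**
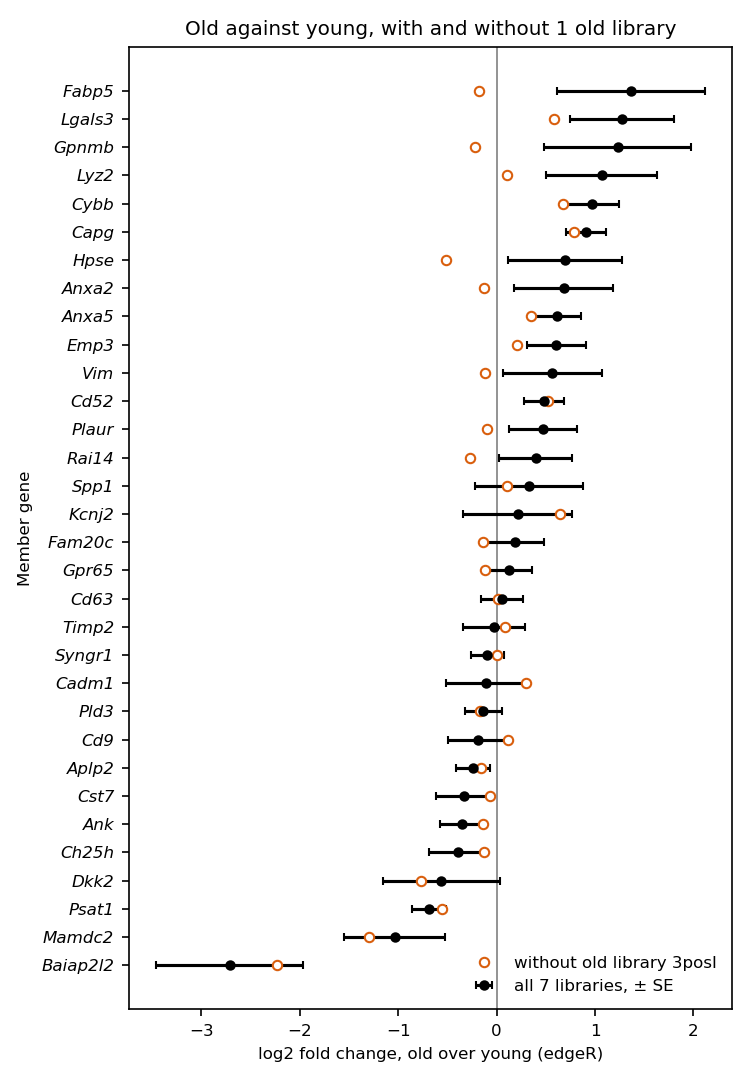
Log2 fold change of each member, old over young, from edgeR, as filled points with the standard error for all 7 libraries and open points without old mouse 3posI. Fabp5 moves from 1.36 to -0.18 and Gpnmb from 1.23 to -0.21, while Capg (0.91 and 0.78) and Psat1 (-0.68 and -0.56) stay close.

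The values of old and young mice did not overlap for 4 members: Capg and Cybb, which were higher in old mice, and Psat1 and Baiap2l2, which were lower. The 3 of them that are among the tested 31 stand beside 17.7% of all genes whose groups did not overlap (8.67% higher and 9.07% lower in old mice). Without 3posI, Cadm1 joined them as higher in old mice, against 28.6% of all genes.

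Capg (chr6:72544391-72562983, + strand), a gelsolin-like protein that caps actin filaments in macrophages, had the smallest p of all members. It stood at 286, 224, 398 and 324 CPM in young mice 14C, 18C, 23C and 29C and at 520, 671 and 539 CPM in old mice 2posI, 3posI and 4posI. The lowest old value was 1.31 times the highest young one. Its mean was 577 ± 82.0 CPM (SD, n = 3) in old and 308 ± 72.9 CPM (SD, n = 4) in young mice, a log2 fold change of 0.91 ± 0.20 (SE, edgeR adjusted p = 0.0801). Leaving out each library in turn gave 0.78 to 1.05 with adjusted p of 0.0839 to 0.226. DESeq2 gave an adjusted p of 0.00204.

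Cybb (chrX:9435252-9487771, - strand) encodes the membrane subunit of the phagocyte NADPH oxidase, which makes superoxide. Its values were 119, 91.5, 179 and 163 CPM in the young mice (in the order given above) and 228, 370 and 212 CPM in the old mice, so every old mouse exceeded every young mouse. The log2 fold change was 0.97 ± 0.27 (SE, edgeR adjusted p = 0.128), and 0.67 (adjusted p = 0.220) without 3posI.

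Psat1 (chr19:15904678-15947337, - strand), an enzyme of serine synthesis, was at 175, 163, 225 and 221 CPM in the young and 131, 100.1 and 135 CPM in the old mice. All 3 old mice lay under the young ones, for a log2 fold change of -0.68 ± 0.17 (SE, edgeR adjusted p = 0.0995) and of -0.56 (adjusted p = 0.157) without 3posI. Expected counts of Psat1 were not whole in 3 libraries, because some reads were shared with other genes.

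Baiap2l2 (chr15:79258195-79285537, - strand), a protein that bends membranes at the actin cortex, had the largest log2 fold change in size. It was at 7.82, 23.0, 5.51 and 14.3 CPM in the young mice and 1.58, 0.409 and 3.76 CPM in the old mice. The groups did not overlap, but the young mice differed among themselves by 4.18-fold, more than for any other member except Spp1 and Gpnmb. Its log2 fold change was -2.71 ± 0.75 (SE, edgeR adjusted p = 0.122), and -2.23 (adjusted p = 0.133) without 3posI.

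**Figure D3:**
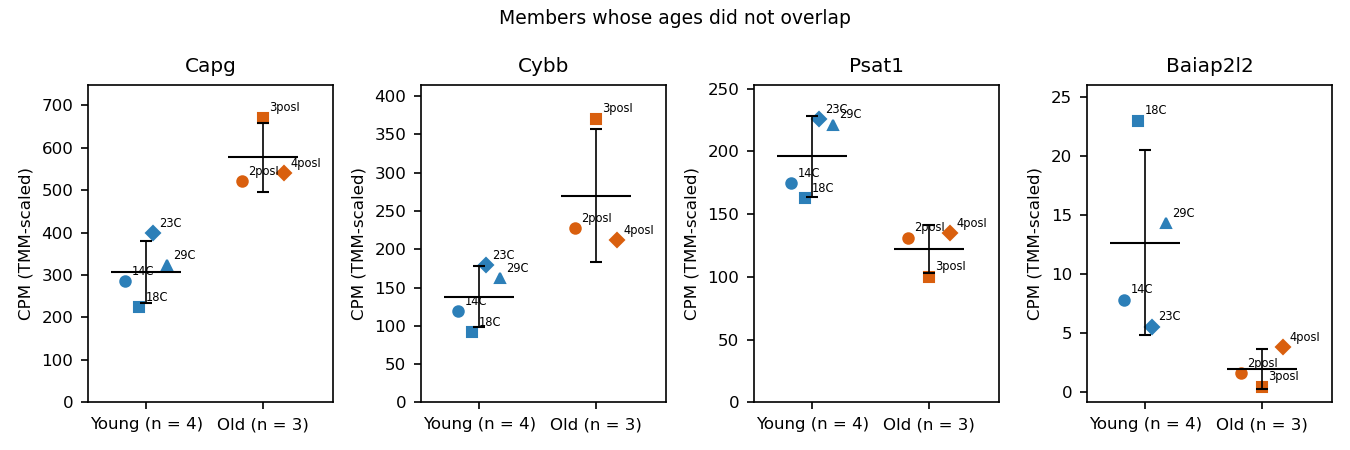
CPM of Capg, Cybb, Psat1 and Baiap2l2 in each library, with the mean as a line and the SD as an error bar (young n = 4, old n = 3). All old points lie above the young points for Capg and Cybb and under them for Psat1 and Baiap2l2, and 3posI is the most extreme old mouse in each panel.

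To show the sequence before the transcription starts of members that the results turn on, the 250 bases upstream of the start were taken from RefSeq (GRCm38.p6). Such windows were at hand for 27 of the 32 members (31 windows), and not for Fabp5, Mamdc2, Cd52, Baiap2l2 and Cadm1. For Cybb and Capg the RefSeq start lay inside the gene span given above, so their windows are internal to that span. Then 4 motifs of factors that act in activated macrophages were searched on both strands. The AP-1 motif was searched as TGANTCA, with any base at N, and stood in the windows of Cybb, Plaur and Anxa2. The match was TGAATCA in Cybb, TGACTCA in Plaur and TGAGTCA in Anxa2. This loose pattern stood in 6.75% of the 32851 windows of all genes. The PU.1 motif AGGAAGT stood in those of Cst7, Lyz2 and Spp1 and in 7.69% of all. Spp1 also had another window, at a different start, which held none of the 4 motifs. The E-box CACGTG, which MiT family factors bind, stood in that of Kcnj2 and in 6.02% of all. The ATF4 motif TGATGNAA was in none of the member windows and in 3.45% of all. A match is a string of letters and does not show binding. Below, the windows with an AP-1 motif are followed by those with a PU.1 motif, on the strand of the gene, with the motif in capitals, and by Capg, which held none of the 4 motifs and is in lower case throughout.
Cybb (chrX:9469325-9469574, - strand): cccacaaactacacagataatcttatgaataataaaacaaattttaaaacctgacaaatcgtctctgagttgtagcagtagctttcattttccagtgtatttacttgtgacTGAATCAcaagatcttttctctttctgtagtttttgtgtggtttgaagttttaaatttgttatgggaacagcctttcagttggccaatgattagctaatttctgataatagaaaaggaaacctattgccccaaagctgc
Plaur (chr7:24462233-24462482, + strand): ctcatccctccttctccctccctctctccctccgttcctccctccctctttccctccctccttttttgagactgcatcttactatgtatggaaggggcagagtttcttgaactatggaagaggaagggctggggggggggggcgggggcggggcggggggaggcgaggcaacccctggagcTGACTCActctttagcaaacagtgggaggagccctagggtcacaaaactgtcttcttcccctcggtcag
Anxa2 (chr9:69453433-69453682, + strand): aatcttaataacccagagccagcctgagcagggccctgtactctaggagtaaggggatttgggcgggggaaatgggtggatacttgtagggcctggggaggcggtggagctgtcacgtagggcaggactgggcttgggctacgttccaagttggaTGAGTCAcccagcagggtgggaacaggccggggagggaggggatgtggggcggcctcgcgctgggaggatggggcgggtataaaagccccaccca
Cst7 (chr2:150570165-150570414, + strand): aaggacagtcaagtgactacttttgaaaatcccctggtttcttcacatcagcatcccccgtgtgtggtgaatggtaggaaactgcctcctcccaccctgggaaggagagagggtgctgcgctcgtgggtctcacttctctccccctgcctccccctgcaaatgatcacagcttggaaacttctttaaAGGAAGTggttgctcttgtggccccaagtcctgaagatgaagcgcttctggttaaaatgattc
Lyz2 (chr10:117282273-117282522, - strand): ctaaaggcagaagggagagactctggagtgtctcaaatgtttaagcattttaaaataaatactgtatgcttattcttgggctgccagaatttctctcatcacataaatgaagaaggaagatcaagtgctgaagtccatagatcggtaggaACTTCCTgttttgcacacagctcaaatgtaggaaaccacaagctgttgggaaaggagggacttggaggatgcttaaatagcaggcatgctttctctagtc
Spp1 (chr5:104434861-104435110, + strand): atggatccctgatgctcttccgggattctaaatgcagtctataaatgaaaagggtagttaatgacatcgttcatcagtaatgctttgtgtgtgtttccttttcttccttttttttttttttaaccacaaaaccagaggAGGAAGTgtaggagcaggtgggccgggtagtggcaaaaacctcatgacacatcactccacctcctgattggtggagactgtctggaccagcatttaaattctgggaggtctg
Capg (chr6:72549397-72549646, + strand): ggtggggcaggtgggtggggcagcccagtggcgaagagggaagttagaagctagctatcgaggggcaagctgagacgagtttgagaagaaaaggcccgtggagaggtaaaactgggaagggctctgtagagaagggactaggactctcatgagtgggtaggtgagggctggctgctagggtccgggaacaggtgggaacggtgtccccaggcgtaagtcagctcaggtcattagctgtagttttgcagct
Cybb, Plaur and Anxa2, the members with an AP-1 motif in this window, were all highest in 3posI, as were 12 other members, 11 of which had a window and no such motif. Of the members with a PU.1 motif, Lyz2 was highest in 3posI and Cst7 lowest.

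Among the secreted and matrix proteins, 5 of 8 were higher in old mice with a median log2 fold change of 0.26, and 4 of 8 with a median of -0.03 without 3posI. Spp1 (chr5:104435118-104441050, + strand) was at 12504, 5166, 25550.0 and 11669 CPM in young and 22148, 22323 and 7314 CPM in old mice. Each age thus held both high and low mice, and the log2 fold change was 0.33 ± 0.55 (SE, edgeR adjusted p = 0.782). Leaving out 1 library gave 0.06 to 0.82, and 0.10 without 3posI. The exons of Spp1 overlap those of Gm42793 on the same strand, and its expected counts were not whole in any library, so its exact level is uncertain. Lyz2 (chr10:117277331-117282321, - strand), a lysozyme of macrophages that degrades bacterial walls, was at 4180, 1729, 4614 and 2072 CPM in young and 4210, 13001 and 2575 CPM in old mice. The old mice other than 3posI lay within the young range. The near copy Lyz1 was at 0.895 to 21.5 CPM, and it too was highest in 3posI. Lgals3, a lectin that binds damaged membranes, was at 232 to 909 CPM in young mice and at 778, 2116 and 705 CPM in old mice. Its log2 fold change of 1.28 ± 0.53 (SE, edgeR adjusted p = 0.240) became 0.58 without 3posI. Hpse, the heparan sulphate-degrading heparanase, stood at 61.2 CPM in 3posI against 9.35 to 23.9 CPM in all others. The kinase Fam20c and the protease inhibitor Timp2 had log2 fold changes of 0.19 and -0.03. Dkk2 and Mamdc2 stayed at or under 1.20 CPM in all libraries.

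Of the endosome and lysosome proteins, Cd63, Gpnmb, Pld3 and Cst7 were tested with a median of -0.04, and 2 of these 4 were higher in old mice. Cd63 (chr10:128900989-128912822, + strand), a tetraspanin of late endosomes, showed wide overlap of the ages. Its values were 1460, 1257, 2130 and 1613 CPM in young and 1863, 1777 and 1401 CPM in old mice, for a log2 fold change of 0.06 (SE 0.21). Gpnmb (chr6:49036546-49070929, + strand), a glycoprotein of lysosomes and phagosomes, was at 1027, 246, 1074 and 363 CPM in young and 532, 3597 and 636 CPM in old mice. In 3posI it was 6.16 times the mean of the other old mice, which both lay within the young range. Gpnmb gave a log2 fold change of 1.23 ± 0.75 (SE, edgeR adjusted p = 0.407) and -0.21 without 3posI. Cst7, an inhibitor of lysosomal cathepsins, went the other way: 3posI had the lowest value, 137 CPM, while all other mice were at 209 to 374 CPM. The lysosomal nuclease Pld3 was at 637 to 1029.7 CPM in the 7 libraries and gave a log2 fold change of -0.14.

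The surface and membrane proteins were split evenly, with 5 of 10 higher in old mice and a median log2 fold change of 0.02. Cd9 (chr6:125460266-125494791, - strand), a tetraspanin, was at 1270, 1761, 1233 and 1860 CPM in young and 1606, 720 and 1712 CPM in old mice. Only 3posI lay outside the young range, and it lay below it. Cd52 (chr4:134082448-134095082, - strand), a short glycoprotein anchored on leukocytes, was at 314, 388, 309 and 524 CPM in young and 598, 505 and 502 CPM in old mice. All but 1 of the young mice were under the old ones, and the log2 fold change of 0.48 ± 0.20 (SE, edgeR adjusted p = 0.253) was 0.52 without 3posI. The exons of Cd52 overlap those of Crybg2 and the exons of Cd9 those of Gm26728, each on the opposite strand, and since the libraries carried no strand, reads of such pairs cannot be told apart. The adhesion molecule Cadm1 was at 92.5 CPM in 3posI, 3.76 times lower than the mean of the other old mice, and at 207 to 351 CPM elsewhere. The potassium channel Kcnj2 was also lowest there (3.12 CPM against 4.71 to 15.8 CPM elsewhere). In contrast, Plaur, the urokinase receptor, was highest in 3posI at 388 CPM, against 128 to 214 CPM in all others, and Emp3 at 260 CPM against 81.7 to 158 CPM. The proton-sensing receptor Gpr65, the pyrophosphate transporter Ank, the APP-related protein Aplp2 and the vesicle protein Syngr1 had log2 fold changes between -0.35 and 0.13. Of these, Syngr1 differed least among mice, from 530.3 to 756 CPM.

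Annexins and cytoskeletal proteins had the highest median of the role groups, 0.59, with 5 of 6 higher in old mice, and this turned to -0.13 with 2 of 6 without 3posI. After Capg, the member with the highest TPM was Anxa5 (chr3:36448923-36475894, - strand), which binds phosphatidylserine. It was at 338, 249, 465 and 343 CPM in young and 458, 708 and 433 CPM in old mice. The old mice other than 3posI lay just within the young range, and the log2 fold change was 0.61 ± 0.25 (SE, edgeR adjusted p = 0.227), or 0.35 without 3posI. The membrane-binding annexin Anxa2, the intermediate filament protein Vim and the actin-associated protein Rai14 shared 1 pattern. Each was highest in 3posI (437, 594 and 74.4 CPM), where it was 3.27, 2.82 and 2.76 times the mean of the other old mice, and lowest in young mouse 18C (72.2, 127 and 24.3 CPM).

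Of the lipid and amino acid enzymes and carriers, Fabp5 (chr3:10012548-10016607, + strand), a fatty acid-binding protein, had the highest mean TPM. Its values were 170.2, 75.6, 291 and 80.1 CPM in young and 162, 918 and 109 CPM in old mice. The value in 3posI was 6.76 times the mean of the other old mice, and its log2 fold change of 1.36 ± 0.75 (SE, edgeR adjusted p = 0.363) became -0.18 without it. Ch25h, which makes the oxysterol 25-hydroxycholesterol, was lowest in 3posI at 44.0 CPM and at 63.0 to 116 CPM elsewhere. With Psat1, described above, the 3 genes had a median of -0.39.

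The same libraries were high or low for many members. Old mouse 3posI held the highest value of 15 of 32 members (46.9%, against 21.5% of all genes) and the lowest of 10 (31.2%, against 20.3%). In 11 of the 15, 3posI was over 1.5 times every other library. Young mouse 18C held the lowest value of 15 members (46.9%, against 15.9% of all genes), and 12 members were both highest in 3posI and lowest in 18C (37.5%, against 7.57% of all genes).

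The young mice alone were ordered in a like way. In 20 of 32 members (62.5%, against 14.6% of all genes), 23C was the highest and 18C the lowest young mouse. Spp1 was 4.95, Gpnmb 4.37, Lgals3 3.91 and Fabp5 3.84 times higher in 23C than in 18C. All 15 members that were highest in 3posI were lowest among the young in 18C, and 14 of them were highest among the young in 23C, against 46.9% and 44.0% of all genes that were highest in 3posI. The exception was Plaur, whose highest young mouse was 29C.

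**Figure D4:**
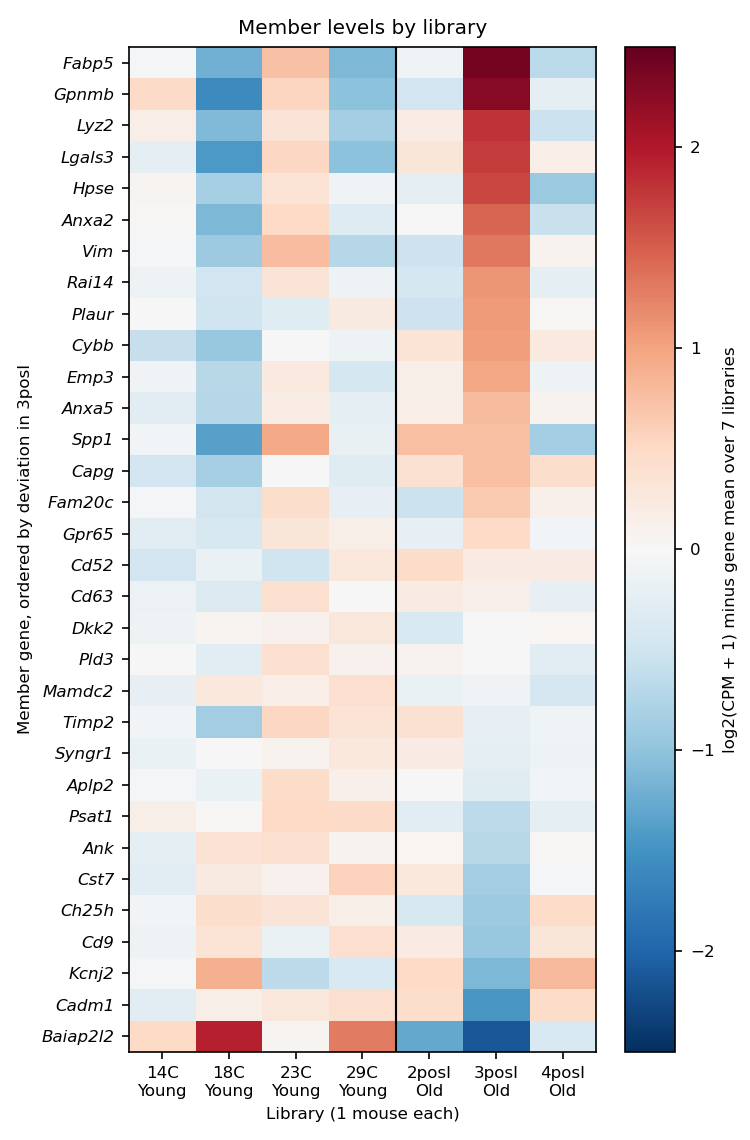
Level of each member in each library as log2(CPM + 1) minus the mean of that gene over 7 libraries (red above, blue below the mean), with genes ordered by the deviation in 3posI and a line between young and old mice. Mouse 3posI holds the strongest red and blue cells from Fabp5 at the top to Baiap2l2 at the bottom, and 23C and 18C differ in the same upper rows.

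The homeostatic genes were ordered the opposite way in 3posI, 23C and 18C. Their sum was lowest in 3posI (13980 CPM) and next lowest in 23C (25488 CPM) and highest in 18C (39677 CPM). The 31 tested members summed to 51051 CPM in 3posI, 42425 CPM in 23C and 14825 CPM in 18C. The opposite order did not hold across all libraries. Mouse 4posI was below 14C in both the homeostatic sum (29722 against 31673 CPM) and the member sum (19962 against 26101 CPM). Both sums are parts of the same library total, and Spp1 alone made up much of the second. Of the 22 homeostatic genes tested, 0 were called by edgeR or limma-voom, 1 lower by DESeq2 and 1 lower at an unadjusted p under 0.05. Their median log2 fold change was -0.25, or 0.04 without 3posI, and 17 of 22 were lowest in that library. The 3 with the smallest p were Fcrls (-0.71, adjusted p = 0.176, edgeR), Csf1r (-0.63, adjusted p = 0.288) and Golm1 (-0.60, adjusted p = 0.301).

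Summed markers of monocytes, border-associated macrophages, neutrophils and dendritic cells were highest in 3posI, as were many members. Of the single markers in these sums, 12 of 12, 7 of 10, 4 of 10 and 3 of 7 were highest there. Among the young mice, these sums were not ordered as the members were. Monocyte markers were lowest in 18C (192 CPM) but highest in 14C (513 CPM), with 23C at 237 CPM. Neutrophil markers were lowest in 23C (18.1 CPM) and highest in 29C (151 CPM). The 10 border-associated macrophage markers summed to 1644 CPM in 3posI, 665 and 220 CPM in the other old mice and 192 to 532 CPM in the young ones. The 10 neutrophil markers summed to 18.1 to 151 CPM in young and 52.9 to 188 CPM in old mice, again with 3posI highest. Single neutrophil markers were split, and S100a8, Retnlg, Camp, Ngp and Ltf were highest in young mouse 29C. For 7 dendritic cell markers the sums were 6.22 to 9.84 CPM in young and 13.9 to 61.8 CPM in old mice. Ccr7 alone was at 44.8 CPM in 3posI. Of the 7, 4 had a log2 fold change above 0, while Zbtb46, Xcr1 and Itgae were below 0. T and NK cell markers (10 genes) summed to 1.61 to 11.0 and 6.48 to 12.5 CPM, a sum in which Cd4 alone reached 10.2 CPM in 23C and 10.3 CPM in 2posI. All 10 of them had a fitted log2 fold change above 0 with and without 3posI, 9 had an unadjusted p under 0.05, and Cd8a, Cd8b1, Trac, Nkg7, Cd2 and Lck were higher in every old mouse than in any young one, at 0.119 to 1.21 CPM in old and 0 to 0.471 CPM in young mice. B cell markers (8 genes) summed to 50.7 to 208 and 81.9 to 294 CPM, with Ighm the largest part in every library and Pax5 at 0 in all libraries. Their lowest young sum was in 23C and their lowest old sum in 3posI.

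Markers of cells outside the immune lineage were low. Pericyte and fibroblast markers (10 genes) summed to 315 CPM in young mouse 23C, 36.0 to 76.3 CPM in the other young mice and 15.7 to 52.5 CPM in old mice. Sums in young and old mice were 86.9 to 157 and 63.2 to 90.2 CPM for endothelial cells (10 genes), 114 to 159 and 78.1 to 214 CPM for astrocytes (8 genes), 122 to 141 and 128 to 168 CPM for oligodendrocytes (8 genes) and 2.66 to 4.57 and 1.46 to 3.93 CPM for neurons (8 genes).

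Of 92 tested markers in these 11 lists, edgeR called 0 with all 7 libraries. At an unadjusted p under 0.05, 28 were higher and 9 lower, against 18.9% of all genes. DESeq2 called 9 higher and 4 lower (7.99% of all genes), and limma-voom 1 higher (0.814% of all genes). The 33 genes with the smallest p, 3 from each list, had adjusted p of 0.0539 to 0.731 by edgeR. They included Ly6c2 and Plac8 of monocytes, Cd209f, Ms4a7 and Clec10a of border-associated macrophages, Cxcr2, Mmp9 and Mmp8 of neutrophils, Cd8b1, Cd8a and Trac of T cells, Ms4a1, Ighm and Cd79a of B cells, and Ccr7, Cd209a and Clec9a of dendritic cells. For cells outside the immune lineage they were Ly6c1, Pecam1 and Slco1c1, Col1a1, Lum and Kcnj8, Aldh1l1, Gjb6 and Aldoc, Mobp, Cldn11 and Ermn, and Rbfox3, Snap25 and Tubb3. Of these, Ly6c1, Pecam1, Slco1c1, Col1a1 and Lum were lower in every old mouse than in any young one, and the rest overlapped between ages. Without 3posI edgeR called 1, the monocyte gene Ly6c2 (log2 fold change 3.01, adjusted p = 0.0295, and 5.33 with adjusted p = 0.0539 with 3posI). Ly6c2 was at 15.3, 162 and 9.59 CPM in old mice and at most 2.86 CPM in young mice, so it was higher in every old mouse. Of the 12 monocyte markers, 12 were higher in old mice with all libraries and 11 without 3posI. The part of these cells in the values of the members was not tested.

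**Figure D5:**
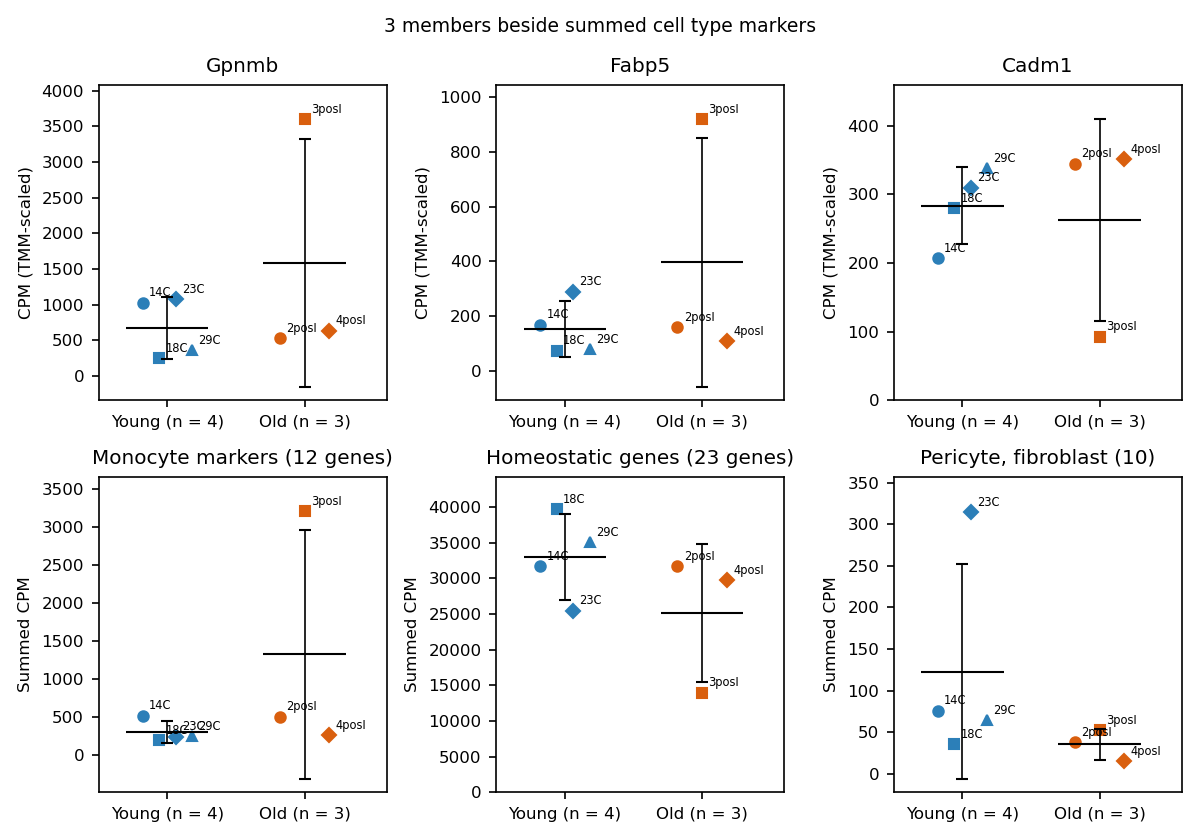
CPM of Gpnmb, Fabp5 and Cadm1 (top) and summed CPM of monocyte, homeostatic microglial, and pericyte and fibroblast markers (bottom) in each library, with mean and SD (young n = 4, old n = 3). Mouse 3posI is at the top for Gpnmb (3597 CPM), Fabp5 (918 CPM) and monocyte markers (3210 CPM) and at the bottom for Cadm1 (92.5 CPM) and homeostatic genes (13980 CPM), while 23C is at the top for pericyte and fibroblast markers (315 CPM).

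The rest of the DAM programme was read from a second list of 32 identifiers outside the members. edgeR called 0 of these 32, with 4 higher and 5 lower at an unadjusted p under 0.05 (18.9% of all genes), and the median log2 fold change was -0.03, or 0.01 without 3posI. DESeq2 called 4 higher and 4 lower (7.99% of all genes), and limma-voom 1 lower. Itgax, the integrin CD11c, was at 19.7, 26.1, 15.9 and 27.8 CPM in young and 47.1, 43.7 and 43.7 CPM in old mice. The old mice were close to each other and above all young mice, for a log2 fold change of 1.00 ± 0.19 (SE, edgeR adjusted p = 0.0565). The lectin receptor Clec7a had a log2 fold change of 0.61 (adjusted p = 0.0847), and the growth factor Igf1 of -1.93 (SE 0.39, adjusted p = 0.0618). Clec7a and Igf1 were lowest among the old mice in 3posI, at 188 and 40.1 CPM, and Itgax was level there with 4posI. Without 3posI, the log2 fold change by edgeR was 1.02 for Itgax (adjusted p = 0.0743) and 0.68 for Clec7a (adjusted p = 0.0835). For Igf1 it was -1.71 (adjusted p = 0.0970). Groups did not overlap for 7 of the 32, against 17.7% of all genes, with Itgax, Clec7a and the ferritin chain Fth1 higher and Igf1, Csf1, Cd83 and Ctsd lower in old mice. Trem2 was at 1239 to 1651 CPM in young and 1059 to 1647 CPM in old mice, for a log2 fold change of -0.003. Apoe ranged from 9327 to 40039.6 CPM within the old mice alone.

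Among the regulators of the programme, 0 of 21 tested were called by edgeR or limma-voom and 1 higher by DESeq2, with 2 higher at an unadjusted p under 0.05 and a median of -0.03. Without 3posI the median was -0.20, and 5 of 21 were above 0 in place of 10. Rxra, a nuclear receptor that pairs with lipid-sensing receptors, was at 24.5 to 30.7 CPM in young and 37.4 to 51.4 CPM in old mice without overlap (log2 fold change 0.68, SE 0.15, adjusted p = 0.0718, edgeR). Without 3posI it was 0.56 (adjusted p = 0.113). Its partner Nr1h3 was at 35.7 CPM in 3posI and at 1.45 to 5.20 CPM in all other mice, the same high library as for Gpnmb and Fabp5. The third by p was Maf (0.46, adjusted p = 0.280, and 0.65 without 3posI). Spi1, which encodes PU.1, was steady at 437 to 507 CPM in all libraries, and Mitf and Tfeb, factors for lysosomal genes, had log2 fold changes of -0.17 and -0.15.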

How the data were processed

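Libraries of sorted Bodipy+ microglia, 4 from young and 3 from old males, were analysed, with the age group and animal code taken from the labels and the day and sort from the paper's methods. The authors made the tables with FastQC 0.11.5 for quality control, skewer for trimming, STAR for mapping to GRCm38, and RSEM on GENCODE m15. For STAR and RSEM the version is not given in the sources used. Libraries were non-stranded and made by the Smart-seq2 method, and no molecular identifiers are named, so counting errors are not those of independent molecules. The authors deposited expected counts from RSEM without normalization, beside TPM and FPKM values scaled within each library. FPKM was not used here. RSEM splits a read that matches several genes. Expected counts were not whole, within 0.001, in all 7 libraries for Spp1, Lyz2, Cd63, Fabp5, Cd9 and Ch25h, in 4 for Anxa2 and Gpr65, in 3 for Psat1 and in 1 for Cd52, so the levels of these genes are uncertain. Exons also overlap between Gpr65 and Gm47566, Anxa2 and Gm16144, Rai14 and Gm10389, Ch25h and Gm26902, and Ank and Mir7117.

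Expected counts were rounded. As in the study's methods, a gene was kept if its count exceeded 10 in 1 or more libraries, and 614 genes off the autosomes were left out, which left 17559. In R 4.3.3, edgeR 4.0.16 scaled the libraries by TMM and ran its quasi-likelihood test with age as the only term, and a call is an adjusted p under 0.05 (Benjamini-Hochberg, over all genes). The biological coefficient of variation was 37.2%. In simulated counts, 200 of 17559 genes were given a known change. At 2-fold, edgeR detected 26% of these genes, limma-voom 23% and DESeq2 56%. At 4-fold, the shares were 85%, 77% and 95%. Unchanged genes made up 25.6% of the DESeq2 list, but only 1.77% of the edgeR list and 2.91% of the limma-voom list. A gene called by DESeq2 alone is therefore less certain, and edgeR can miss most 2-fold differences. The changed genes were drawn only from those with higher mean counts, and no simulated library stood apart as 3posI did. The rates may therefore differ in the real data and for low members such as Dkk2 and Mamdc2. Totals per library were 36574083 to 53002386. Alternatives were DESeq2 1.42.0, limma-voom (limma 3.58.1), RLE and upper-quartile factors, deposited effective lengths as an offset, other filters, limma on log2(TPM + 1) and on log2(TPM + 0.1), chromosomes X, Y and M kept, and each library left out. The limma-voom, DESeq2 and leave-one-out fits of Cybb were added after the data were seen. Gene positions came from GENCODE vM21 (GRCm38), which holds 50462 of the 50686 identifiers. Promoter windows came from RefSeq.

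The members and lists were chosen with earlier results of these data known, so no test was run over a list. CPM per library is given for members called, for those whose ages did not overlap, and for the 2 with the highest mean TPM in each role group, and the others by range. From each other list the called genes and the 3 with the smallest p are named, with other genes added after their values were seen. A single gene that this rule names is not reported here. Both identifiers of Lilrb4a were counted.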

Additional observations from a re-analysis of the deposited data

How the results depend on the processing

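Over 18 settings for the 32 members, 568 alternative values were computed, of which 538 kept their direction and their side of the threshold, 24 changed direction and 6 passed a threshold that the reported value did not. The 6 were Capg, Psat1, Baiap2l2 and Cybb with DESeq2, and Capg and Psat1 at an adjusted p under 0.1. With DESeq2, 1 member was called higher and 2 lower, and at an adjusted p under 0.1, 1 was called higher (Capg) and 1 lower (Psat1), against 3.63% of all genes. The members' median was -0.12 to 0.26 over the fits that leave out 1 library, and the count above 0 was 12 to 19, with the lowest of both without 3posI (replicate 2 of the old mice). The number whose groups do not overlap was 3 to 6, with 6 without 14C and 5 without 23C. Over all genes, this share was 17.7% with all libraries and 28.6% without 3posI. It was not computed without 14C or 23C, so the higher counts there are not read as a result about the members. The sign of 14 members changed somewhere. Timp2 was at 0.15 with effective lengths, 0.11 on both TPM scales and 0.0464 with limma-voom, and Cd63 at -0.0161 on both TPM scales. Over the fits without 1 library, values were -0.24 to 0.16 for Timp2, -0.51 to 1.11 for Hpse, -0.14 to 0.44 for Fam20c, -0.21 to 1.64 for Gpnmb, -0.0409 to 0.22 for Cd63, -0.40 to 0.12 for Cd9, -0.10 to 0.77 for Plaur, -0.12 to 0.26 for Gpr65, -0.38 to 0.29 for Cadm1, -0.21 to 0.70 for Kcnj2, -0.13 to 1.02 for Anxa2, -0.12 to 1.00 for Vim, -0.27 to 0.67 for Rai14 and -0.18 to 1.87 for Fabp5. For the other DAM genes, DESeq2 called 4 higher and 4 lower, effective lengths, filterByExpr and no filter 1 higher, limma-voom and no filter 1 lower, and an adjusted p under 0.1 gave 2 higher and 1 lower. Leaving out 1 library gave 0 to 1 lower, and a median of -0.14 to 0.0365, and both TPM scales gave -0.16. Of homeostatic genes DESeq2 called 1 lower, and of regulators DESeq2 and an adjusted p under 0.1 each gave 1 higher. Over all genes, 748 were called higher and 655 lower with DESeq2, 32 and 34 higher with log2(TPM + 1) and log2(TPM + 0.1), 157 higher and 131 lower without a filter, 82 lower with effective lengths, 65 lower with filterByExpr, and 377 higher and 260 lower at an adjusted p under 0.1. Leaving out 1 library gave 1 to 116 higher and 0 to 43 lower, with 1 higher without 2posI, 14C or 18C, 2 without 29C, 10 without 23C and 43 without 4posI. The median of all genes moved to -0.13 with log2(TPM + 0.1), -0.0677 with log2(TPM + 1), -0.0617 without a filter and -0.0487 with upper-quartile factors, and was -0.0419 to 0.00542 with 1 library left out. Changes on the first of these scales are relative to that shift. The causes of these differences were not tested. No paired analysis was possible because the labels give animal codes and no number that joins a young to an old mouse.

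With 3 and 4 mice, a BCV of 37.2% and 0 members called, a difference of the size seen for most members could not be told apart from the spread between mice, and this does not show that ages were alike. None of the 32 members had a library set apart from the other 3 young mice by more than Dixon's 95% critical value, where 1.6 would be expected by chance, and groups of 3 were not tested.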
